A study of Mus musculus with 15 samples.

Results

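The 35 genes described here encode proteins that carry a cell through mitosis, the stage in which duplicated chromosomes are condensed, attached to the spindle and divided between daughter cells. They were taken by symbol: a probe set counted for a gene when the platform annotation gave it that symbol and no other, and each gene is represented by its brightest probe set, judged by the mean of the 15 arrays. Each of the 35 had such a probe set, among 18194 genes on the arrays, and 26 of them had more than 1. A gene was tested when the mean of at least 1 group reached 5 on the log2 scale, which left 30 of the 35 members and 9045 genes in all. Bub1b, Dlgap5, Nek2, Ttk and Kif4 stayed below that level in every group and are described by their levels alone. The rule names symbols and uses no measured value beyond that mean, but the symbols were chosen with earlier results of these data known.

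Spleen lymphocytes of B6x129 mice, with neither sex nor age given in the labels, were profiled on Affymetrix arrays in 5 groups of 3 arrays. The B cell groups were cells treated for 4 h with 25 ug/ml lipopolysaccharide (LPS), a bacterial activator of B cells, and untreated B cells at 0 h. The T cell groups were untreated cells at 0 h and cells given ConA (concanavalin A, a plant lectin that activates T cells) at 7.5 ug/ml for 4 h or for 14 h. The labels call the 0 h cells quiescent, resting or naive. They give no group cultured without LPS or ConA, so time in culture and the activator cannot be told apart, and they do not state how B and T cells were separated or whether replicates came from separate animals.

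Mitotic genes are transcribed mostly from the late S phase on, peak in G2 and mitosis, and are kept low in resting cells. In resting mammalian cells the DREAM complex, made of a retinoblastoma-like protein, an E2F protein and the MuvB core, represses many of them, and in dividing cells the MuvB core acts with B-Myb and FoxM1 to activate them. MuvB binds a short promoter element called the cell cycle genes homology region, written TTTGAA in its most frequent form, and the activator NF-Y binds CCAAT boxes upstream of it. Resting lymphocytes need most of a day after stimulation before they first divide, whereas erythroid progenitors in the mouse spleen divide continually.

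Most promoters of the members hold these elements, and 6 are printed: 5 that hold both, of genes that fell after LPS and after ConA, and that of Melk, the member that rose after LPS, which holds neither. The promoter of Nusap1, not printed, also holds neither, and Nusap1 fell after LPS and after ConA. RefSeq promoter windows (GRCm38.p6), reaching from 250 bases before to 50 bases after a start site, were matched by symbol for 30 of the 35 members, with 31 windows since Prc1 has a pair. Aurkb, Kif20a, Dlgap5, Tpx2 and Ccna2 were not matched. The lines below give the 120 bases before the start, 5′ to 3′ on the gene's own strand. Capitals mark TTTGAA and CCAAT as read on either strand, so TTCAAA and ATTGG are the same elements on the opposite strand. The positions are chr10:69352913-69353032 for Cdk1, chr11:99024190-99024309 for Top2a and chr4:118437344-118437463 for Cdc20, all on the minus strand, and chr2:164769809-164769928 for Ube2c, chr19:37376262-37376381 for Kif11 and chr4:44300797-44300916 for Melk, all on the plus strand.
Cdk1: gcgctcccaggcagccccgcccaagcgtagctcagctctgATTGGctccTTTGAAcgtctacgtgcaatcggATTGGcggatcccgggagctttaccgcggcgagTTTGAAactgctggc
Top2a: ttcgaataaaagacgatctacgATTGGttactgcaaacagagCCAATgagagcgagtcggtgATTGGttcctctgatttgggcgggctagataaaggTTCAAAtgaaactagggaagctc
Cdc20: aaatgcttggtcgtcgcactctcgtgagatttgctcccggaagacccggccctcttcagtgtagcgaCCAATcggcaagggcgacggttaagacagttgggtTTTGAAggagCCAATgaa
Ube2c: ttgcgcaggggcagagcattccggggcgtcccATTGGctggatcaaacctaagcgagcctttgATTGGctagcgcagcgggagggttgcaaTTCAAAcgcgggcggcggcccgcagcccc
Kif11: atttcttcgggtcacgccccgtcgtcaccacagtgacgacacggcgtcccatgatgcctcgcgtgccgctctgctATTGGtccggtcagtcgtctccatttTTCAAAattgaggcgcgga
Melk: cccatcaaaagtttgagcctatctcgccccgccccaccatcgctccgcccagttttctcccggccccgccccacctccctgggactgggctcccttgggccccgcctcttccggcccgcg

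TTTGAA, counted on both strands, was present in 25 of the 31 member windows (80.6%), in 48.1% of 77 windows of other mitosis genes on the array, in 12.1% of 9499 windows of tested genes and in 17.9% of all 32851 windows. In 23 member windows it lay within 50 bases of the start (74.2%, against 3.1% of the windows of tested genes). CCAAT was present in 28 member windows (90.3%), against 37.9% of the windows of tested genes, and 25 windows held both elements in the same 300 bases (80.6%, against 4.8%). The variant TTTAAA was found in 6 member windows (19.4%, against 9.3%), and the E2F words TTCGCGC or TTGGCGC in 4 (12.9%, against 7.3%). Words were counted separately on both strands, so matches of different words can share bases, and a match describes letters, not a bound site. The windows of Melk and Nusap1 held none of them, Birc5 held TTTAAA alone, Nek2 and Bub1 held CCAAT alone, and Cenpe held CCAAT and TTTAAA without TTTGAA. Of these genes, Nusap1, Birc5, Bub1 and Cenpe were called lower after LPS and at both times of ConA. A link between the elements and the changes was not tested.

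The arrays of a group correlated at 0.995 to 0.999 over all probe sets, those of different groups at 0.893 to 0.99. Markers followed the labels: on B 0 h arrays the median of 11 B cell markers lay between 13.41 and 13.48 (log2), against 3.22 to 3.78 on T 0 h arrays, and that of 13 T cell markers lay between 3.33 and 3.49 on B 0 h arrays, against 12.05 to 12.09 on T 0 h arrays. Markers of other cells, such as erythroid ones, were present too, and their values are given with each comparison. The spike-in dap RNA gave a 3′ minus 5′ signal of 4.59 on T 0 h replicate 2 and 5.94 on T ConA 4 h replicate 1, against 1.82 to 2.67 on the other T arrays and 0.9 to 1.44 on the B arrays (log2). The lowest value of any probe set is 2.24, so a change against a group near that floor can understate the difference. Some probe sets repeated a higher value over a group. Hmmr read 3.36 and Ccna2 4.66 on each T array at 14 h, and Kif20a 3.84 on each at 0 h. Whether these are lower limits of those probe sets was not tested.

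All but a few mitosis genes were highest in untreated B cells. Of the 35 members, 31 had their highest group mean in B cells at 0 h, 3 in T cells at 0 h (Cenpa, Kif23 and Racgap1) and 1 in LPS-treated B cells (Melk), while no member was highest in either ConA group. Among all 9045 tested genes, 19.4% were highest in B cells at 0 h. The lowest mean lay in T cells at 14 h for 22 members, in T cells at 4 h for 11 and in LPS-treated B cells for Cenpa and Racgap1. Of all tested genes, 9.2%, 7.7% and 37.0% were lowest in these groups. The 35 members include those below the test level. The number of the 30 tested members at or above 5 was 23 to 25 per array after LPS and 28 or 29 in B cells at 0 h. It was 18 to 21 in T cells at 0 h, 15 to 17 at 4 h and 12 or 13 at 14 h.

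**Figure D1:**
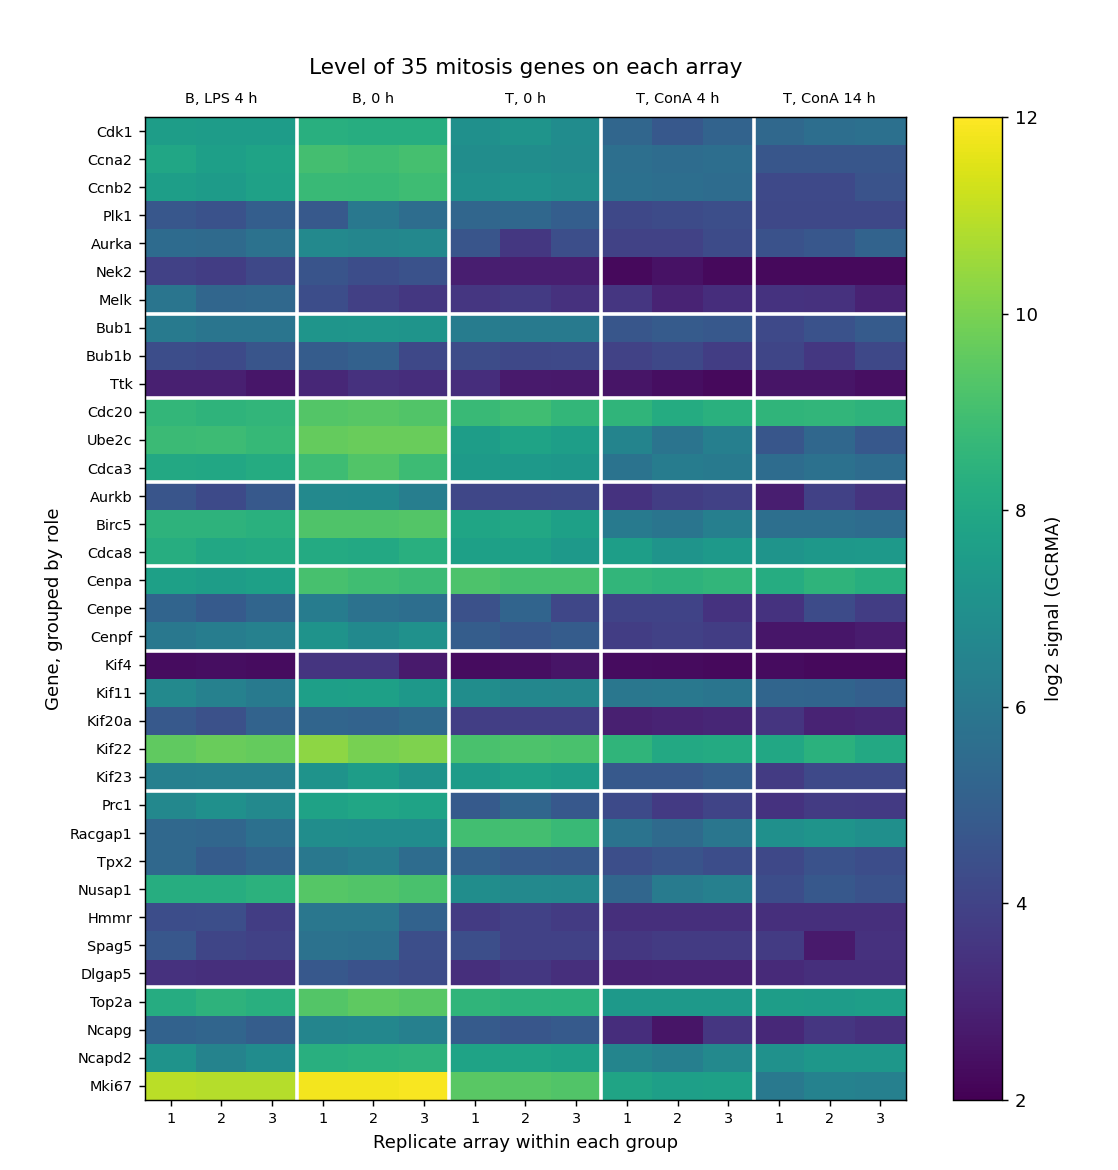
Level of each of the 35 mitosis genes (rows, grouped by role with white lines between the roles) on each of the 15 arrays (columns, 3 replicates in each of 5 groups), as the log2 GCRMA signal on the colour scale. The 3 columns of B cells at 0 h are the brightest for most genes, and Racgap1 and Kif23 are brightest in T cells at 0 h.

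After 4 h of LPS the mitosis genes were lower in B cells. Of the 30 tested members 28 fell and 1 rose, Melk, at an adjusted p under 0.05 in limma, and Cdca8 did not pass. Of all tested genes 79.9% were called, 42.3% as lower and 37.6% as higher. At least a 2-fold fall was seen in 14 members, against 24.1% of all tested genes. The median change of the members was -0.96 (log2), against -0.05 over all tested genes. Of the tested members, 5 reached the test level in 1 group only, Aurkb, Hmmr, Kif20a and Spag5 in B cells at 0 h and Melk after LPS, so that the level filter itself favours a difference in them, and the counts in B cells are a description. Among the other 25 members, 24 fell after LPS and 0 rose (median -0.96), and without any level filter 30 of all 35 members fell and 1 rose. The share of all genes called without that filter was not computed. In 27 members the LPS and 0 h arrays did not overlap, which was also so for 81.6% of all tested genes. In bulk RNA, fewer cells that express a gene and less of its RNA per cell cannot be told apart. The calls of Cenpe, Kif20a, Spag5 and Plk1 were each lost when a single array was left out, Cenpe without LPS replicate 2 (adjusted p = 0.0885, limma) or 0 h replicate 1 (0.0995), Kif20a without LPS replicate 2 (0.0993) or 0 h replicate 3 (0.0602), Spag5 without 0 h replicate 1 (0.0556) or replicate 2 (0.0526), and Plk1 without 0 h replicate 2 (0.0595).

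Erythroid genes moved in the same direction. Of 24 tested erythroid progenitor markers, 21 fell after LPS, 1 rose (Tfrc, the transferrin receptor, which activated lymphocytes also express) and 2 did not pass. Their median per array lay between 7.92 and 8.13 after LPS and between 9.45 and 9.51 at 0 h (log2). With Tfrc, their summed linear signal was 18970 to 20010 after LPS and 30740 to 31620 at 0 h. Without Tfrc, the sum was 11760 to 12030 after LPS and 26310 to 26860 at 0 h. For the 30 mitosis genes it was 6672 to 6892 and 12550 to 12790. Of 10 late erythroid genes, among them Alas2 of haem synthesis and the band 3 anion exchanger Slc4a1, all 10 fell, with per-array medians of 8.18 to 8.39 after LPS and 9.91 to 10.01 at 0 h. No tested progenitor marker was under 4 on any B array; Add2, which was not tested, averaged 2.44 after LPS and 2.63 at 0 h. Of 12 monocyte and macrophage markers, 11 fell after LPS and 0 rose, with per-array medians of 3.87 to 4.33 after LPS and 8.95 to 8.99 at 0 h. Both tested neutrophil markers, S100a8 and S100a9, fell (median change -3.12), as did 4 of 5 plasmablast and plasma cell markers (-0.81 over the 5) and 2 of 4 NK cell markers, while 1 rose in each of the last 2 lists. The part of any of these cells in the signal of the mitosis genes was not tested. Falls were not limited to markers of other cells. Of the 11 B cell markers 9 fell and 0 rose after LPS (median change -1.68), while of 3 dendritic cell markers 2 rose and 1 fell.

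T cells showed the same direction at both times of ConA. At 4 h, 24 of the 30 members fell and 0 rose by limma, where 65.9% of all tested genes were called, 32.5% as lower and 33.4% as higher, and 14 members fell at least 2-fold, against 11.5% of all tested genes. The 6 that did not pass were Aurka, Aurkb, Cdca8, Hmmr, Melk and Spag5, with changes of -0.44 (Hmmr) to -0.14 (Aurka). As every member's mean was below that at 0 h, 0 rose at an unadjusted p under 0.05 either. At 14 h, when 68.4% of all tested genes were called, 27 members fell against 31.9% of all tested genes, 17 of them at least 2-fold against 11%, 1 was called higher (Aurka, with 36.6% of all tested genes called higher), and Hmmr and Melk did not pass. The median change of the members was -0.95 at 4 h and -1.19 at 14 h, against 0.00 and 0.03 over all tested genes. Both comparisons use the same 0 h arrays.

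Erythroid progenitor markers fell in T cells as well, 21 of 24 at 4 h and 20 of 24 at 14 h, with Tfrc higher at both times. Their per-array medians were 7.4 to 7.52 at 0 h, 4.56 to 4.93 at 4 h and 4.01 to 4.24 at 14 h, and 12 of the 24 lay under 4 on each 14 h array. Klf1, the erythroid transcription factor, averaged 7.94 at 0 h, 3.17 at 4 h and 2.41 at 14 h. With Tfrc, the linear signal of the list summed to 10790 to 11460 at 0 h, 7011 to 7560 at 4 h and 7706 to 7912 at 14 h. Without Tfrc, the sum was 9715 to 10390 at 0 h, 2451 to 2930 at 4 h and 2890 to 2927 at 14 h. For the mitosis genes it was 4861 to 5392, 2214 to 2558 and 2033 to 2322. The haem synthesis enzyme Alas2 was at the floor of 2.24 in all 3 T cell groups, but other late erythroid genes were not. Of the 10 tested, 5 fell and 1 rose at 4 h, and 3 fell and 1 rose at 14 h. Slc25a37, a mitochondrial iron importer, averaged 8.90, 8.43 and 8.01 at 0, 4 and 14 h. Mpo, the only marker of granulocyte progenitors, another dividing cell type, to reach 5 in any group, was 5.47 to 5.86 at 0 h, 3.87 to 4.64 at 4 h and 3.34 to 3.63 at 14 h, and 2.27 on all B arrays. Ngp, a granulocyte precursor marker whose group means stayed below 5, read 5.04, 5.52 and 4.28 in B cells at 0 h, averaged 2.78 after LPS, and averaged 2.76, 4.1 and 2.61 in T cells at 0, 4 and 14 h. Both tested neutrophil markers rose at 4 h (median change 2.58) and fell at 14 h (-3.18), and 3 of 4 NK cell markers fell at each time. The part of such cells in the T cell values was not tested. Of the 13 T cell markers, 7 fell and 3 rose at 4 h (median change -0.54), and 9 fell and 0 rose at 14 h (-0.56).

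**Figure D2:**
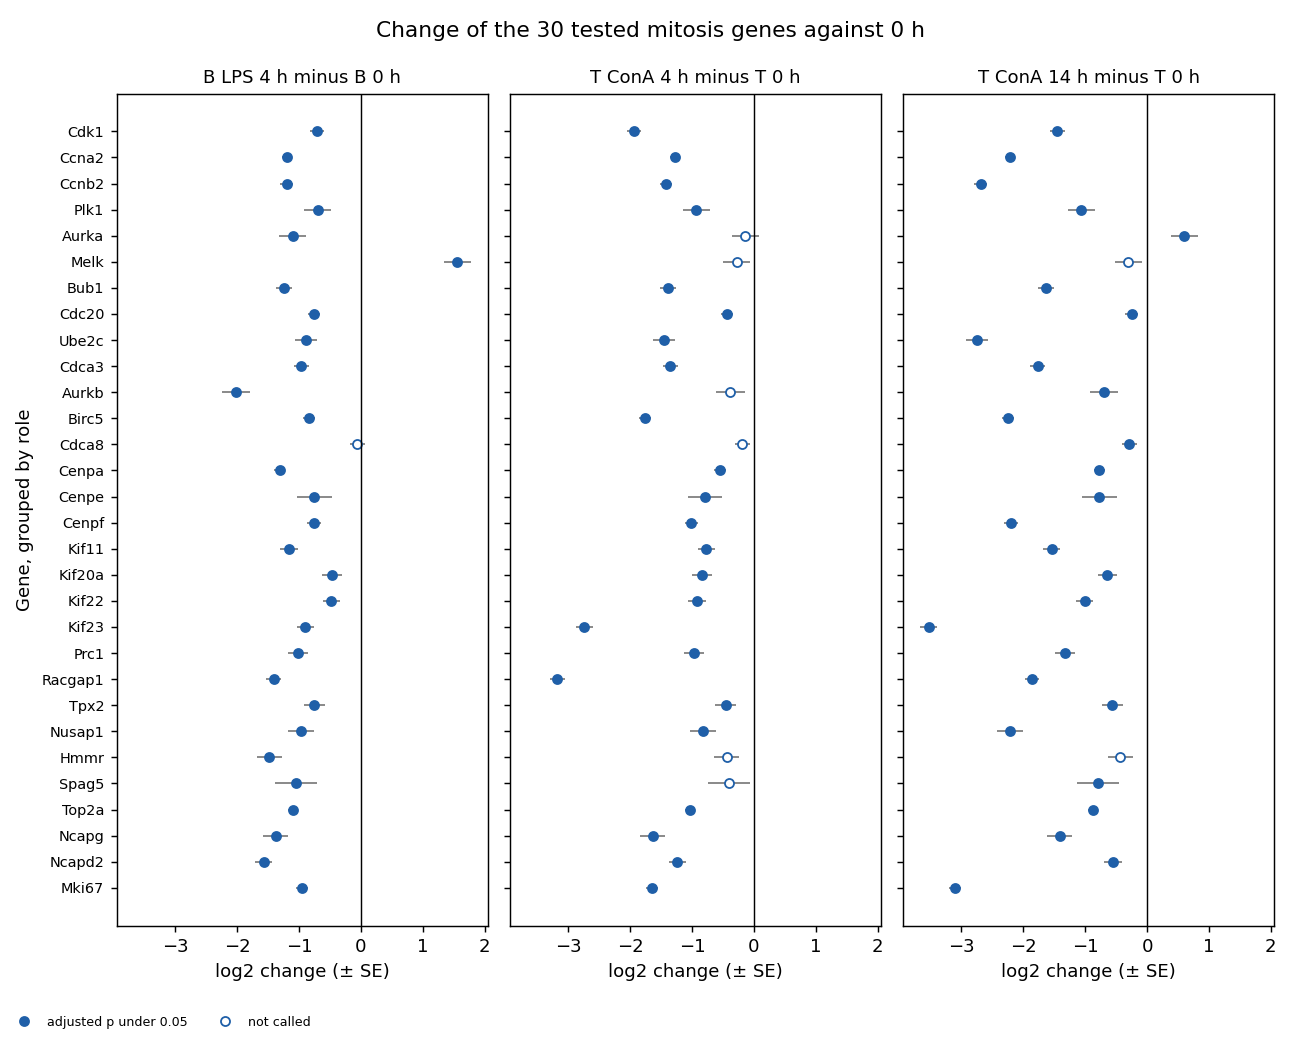
Change of the 30 tested mitosis genes against 0 h (x axis, log2 difference of group means, with lines of 1 SE) for B cells after 4 h of LPS and T cells after 4 h and 14 h of ConA, 3 arrays per group. Filled points passed an adjusted p of 0.05 in limma; Melk lies right of 0 after LPS, Aurka at 14 h of ConA, and no member at 4 h of ConA.

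Untreated B cells had more of most mitotic transcripts than untreated T cells. Of the 30 members, 25 were higher in B cells at 0 h than in T cells at 0 h and 1 was lower, Racgap1, where 76.6% of all tested genes were called, 25.5% as higher and 51.1% as lower. The difference was at least 2-fold upward in 19 members, against 12.2% of all tested genes, and at least 2-fold downward in Racgap1 alone, against 20.3%. Cenpa, Kif23, Melk and Plk1 did not pass. After Prc1, Mki67 and Nusap1, described below with their roles, the largest such differences were those of Aurka (2.44 ± 0.22, limma adjusted p = 2.12e-07), Aurkb (2.44 ± 0.23, 3.65e-07) and Cenpf (2.11 ± 0.11, 7.11e-10). The members' median difference was 1.24 (log2), against -0.27 over all tested genes. Without the 5 members that reached the test level in 1 group only, 21 of 25 were higher and 1 was lower. Among these 25, Aurka, Cenpe, Cenpf, Ncapg, Prc1 and Tpx2 reached that level in B cell groups only. The level filter therefore favours a higher value in B cells for them too. Without a level filter 28 of all 35 were higher and 1 was lower, and the share of all genes called without it was not computed. Of the erythroid progenitor markers, 20 of 24 were higher in B cells at 0 h and 3 were lower, with a median difference of 2.04. All 10 late erythroid genes were higher in B cells. Of 8 markers of germinal centre B cells, which divide in the spleen, 5 (Mybl1, Rgs13, S1pr2, Gcsam and Mef2b) stayed below 5 in every group. The 3 tested were Bcl6, at 10.74 on B 0 h arrays and 8.82 on T 0 h arrays, Neil1, at 8.29 in B and 7.56 in T cells, and Fas, at 5.21 in B and 7.83 in T cells. All 12 monocyte and macrophage markers and both tested neutrophil markers were also higher in B cells, with median differences of 5.0 and 2.63, as were 4 of 5 plasmablast and plasma cell markers (4.56), while all 4 NK cell markers were lower (-6.07). The part of these cells in the difference was not tested.

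Cdk1, the kinase that starts mitosis, read 7.55, 7.54 and 7.53 (log2) after LPS, against 8.29, 8.24 and 8.23 in B cells at 0 h. On T arrays Cdk1 read 7.0, 7.19 and 6.86 at 0 h, 5.30, 4.77 and 5.17 at 4 h, and 5.38, 5.61 and 5.71 at 14 h. The B groups did not overlap, and Cdk1 fell by 0.71 ± 0.12 (SE, limma adjusted p = 0.000122). In T cells it fell by 1.94 ± 0.12 at 4 h (adjusted p = 9.82e-09, limma) and was then higher at 14 h than at 4 h by 0.49 ± 0.12 (adjusted p = 0.0053). Its partners, the A-type cyclin Ccna2 and the B-type cyclin Ccnb2, each fell by 1.2 after LPS and kept falling in T cells. Ccnb2 averaged 7.03 ± 0.07 at 0 h, 5.61 ± 0.08 at 4 h and 4.33 ± 0.20 at 14 h (SD, n = 3 each), a fall of 2.69 ± 0.10 at 14 h against 0 h (limma adjusted p = 4.48e-11). Ccna2 averaged 6.88 ± 0.03 at 0 h, 5.59 ± 0.06 at 4 h and 4.66 on each array at 14 h.

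Plk1, the Polo-like kinase of mitotic entry and spindle assembly, lay at 4.74 ± 0.23 after LPS and 5.44 ± 0.61 in B cells at 0 h, a fall of 0.70 ± 0.22 (limma adjusted p = 0.0107) with overlapping arrays. Plk1 in T cells averaged 5.21 ± 0.20, 4.28 ± 0.12 and 4.15 ± 0.01 at 0, 4 and 14 h. Aurka, the Aurora kinase of spindle poles, read 5.49, 5.44 and 5.75 after LPS, against 6.71, 6.59 and 6.68 in B cells at 0 h, a fall of 1.10 ± 0.22 (limma adjusted p = 0.00039). In T cells Aurka read 4.64, 3.64 and 4.39 at 0 h, 3.98, 3.97 and 4.29 at 4 h, and 4.53, 4.73 and 5.20 at 14 h. These T groups overlap at 0 h and 14 h, and the higher level at 14 h, by 0.60 ± 0.22 (limma adjusted p = 0.0279), passed only with T 0 h replicate 2 and T ConA 14 h replicate 3 both in the fit, with an adjusted p of 0.149 without the first of them and 0.137 without the other. Against 4 h the level at 14 h was higher by 0.74 ± 0.22 (limma adjusted p = 0.014), and this call was lost without T ConA 14 h replicate 3 (0.0725).

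Melk, a kinase of the AMPK family that is most abundant in dividing cells, was the exception in B cells. Its mean reached 5 after LPS only, with 3.28 to 3.97 in the other groups, so that it was tested through the group where it is high, and a difference from the others is in part fixed by that. It read 5.89, 5.32 and 5.37 after LPS, against 4.38, 3.91 and 3.62 in B cells at 0 h, so that every LPS array lay above every 0 h array. The rise was 1.56 ± 0.22 (SE, limma adjusted p = 1.32e-05). On T arrays Melk stayed between 2.96 and 3.71. Its response to LPS exceeded that to 4 h of ConA by 1.84 ± 0.31 (interaction, limma adjusted p = 0.000123). Nek2, a centrosome kinase below the test level, averaged 3.98 after LPS and 4.49 in B cells at 0 h, and 2.84, 2.34 and 2.25 in T cells at 0, 4 and 14 h.

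Of the 3 spindle checkpoint proteins, which hold back anaphase until chromosomes are attached, Bub1 alone was tested. It averaged 5.97 ± 0.12 after LPS and 7.22 ± 0.04 in B cells at 0 h, a fall of 1.25 ± 0.13 (limma adjusted p = 5.56e-07). In T cells Bub1 averaged 6.16 ± 0.05 at 0 h, 4.76 ± 0.10 at 4 h and 4.53 ± 0.33 at 14 h. Bub1b was 4.40 ± 0.19 after LPS and 4.72 ± 0.49 in B cells at 0 h, with 3.95 to 4.22 as the T group means. Ttk was 2.78 ± 0.16 after LPS, 3.28 ± 0.15 in B cells at 0 h and 2.90 at most as a T group mean, close to the floor.

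Cdc20, the activator of the anaphase-promoting complex that triggers chromosome separation, had smaller changes. It read 8.61, 8.52 and 8.59 after LPS, against 9.34, 9.39 and 9.28 in B cells at 0 h. In T cells it read 8.79, 8.93 and 8.63 at 0 h, 8.54, 8.16 and 8.33 at 4 h, and 8.54, 8.58 and 8.48 at 14 h. It fell by 0.76 ± 0.10 after LPS (limma adjusted p = 4.52e-06), by 0.44 ± 0.10 at 4 h of ConA (0.00115) and by 0.25 ± 0.10 at 14 h (0.0337). The last call was lost when any of 4 arrays was left out, with adjusted p-values of 0.0654 (14 h replicate 1), 0.097 (14 h replicate 3), 0.075 (0 h replicate 1) and 0.146 (0 h replicate 2).

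Ube2c, the ubiquitin-conjugating enzyme of the same complex, fell at each step. It read 8.83, 8.87 and 8.71 after LPS, against 9.64, 9.73 and 9.72 in B cells at 0 h. On T arrays it read 7.57, 7.82 and 7.62 at 0 h, 6.50, 5.83 and 6.33 at 4 h, and 4.67, 5.34 and 4.75 at 14 h. The 5 groups do not overlap. Its fall was 0.89 ± 0.18 after LPS (limma adjusted p = 0.000338) and, against 0 h, 2.75 ± 0.18 at 14 h of ConA (1.05e-08). Cdca3, which directs the mitotic inhibitor Wee1 to degradation, averaged 8.06 ± 0.07 after LPS and 9.02 ± 0.22 in B cells at 0 h. Cdca3 in T cells averaged 7.37 ± 0.07, 6.02 ± 0.19 and 5.60 ± 0.11 at 0, 4 and 14 h.

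The chromosomal passenger complex corrects faulty chromosome attachments and guides cytokinesis, and 3 of its subunits are members here. Aurkb, its kinase, read 4.63, 4.25 and 4.79 after LPS, against 6.72, 6.74 and 6.28 in B cells at 0 h, and the groups did not overlap. This was the largest fall of any member after LPS, 2.02 ± 0.23 (limma adjusted p = 1.99e-06). Aurkb reached the test level in B cells at 0 h only, as did Hmmr, Kif20a and Spag5, so that the level filter favours such falls. In T cells Aurkb was low throughout, at 4.13 ± 0.02 at 0 h, 3.75 ± 0.24 at 4 h and 3.43 ± 0.55 at 14 h. Its fall of 0.70 at 14 h (adjusted p = 0.0162, limma) was lost without 14 h replicate 1 (0.0869).

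Birc5, the survivin subunit, read 8.45, 8.47 and 8.33 after LPS, against 9.23, 9.23 and 9.31 in B cells at 0 h. On T arrays Birc5 read 7.88, 8.0 and 7.69 at 0 h, 6.14, 5.87 and 6.30 at 4 h, and 5.65, 5.64 and 5.52 at 14 h. It fell by 0.84 ± 0.10 after LPS (limma adjusted p = 4.04e-06) and, against T cells at 0 h, by 1.76 ± 0.10 at 4 h (4.37e-09) and 2.25 ± 0.10 at 14 h of ConA (4.23e-10). Cdca8, the borealin subunit, was the member that did not pass after LPS. It read 8.22, 8.0 and 8.06 after LPS, against 8.11, 8.04 and 8.30 in B cells at 0 h, and these groups overlap (difference -0.06 ± 0.12, limma adjusted p = 0.654). Cdca8 on T arrays read 7.68, 7.69 and 7.40 at 0 h, 7.61, 7.18 and 7.40 at 4 h, and 7.17, 7.35 and 7.37 at 14 h, and its fall of 0.29 at 14 h (limma adjusted p = 0.0432) was lost when any of the 14 h arrays or 0 h replicates 1 or 2 was left out (0.0525 to 0.155). The other 2 probe sets of Cdca8, both dimmer, gave changes of -0.42 and -0.95 after LPS.

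Among centromere and kinetochore proteins, Cenpa, the histone H3 variant that marks centromeres, had its highest mean in T cells at 0 h. It read 7.68, 7.56 and 7.67 after LPS, against 9.10, 8.93 and 8.81 in B cells at 0 h, a fall of 1.31 ± 0.09 (limma adjusted p = 9.42e-09). On T arrays Cenpa read 9.19, 9.06 and 9.05 at 0 h, 8.59, 8.48 and 8.58 at 4 h, and 8.20, 8.51 and 8.27 at 14 h. The difference between B and T cells at 0 h was -0.15 ± 0.09 and did not pass (limma adjusted p = 0.144). With the second-brightest probe set of Cenpa, which averaged 5.01 on B 0 h arrays and 6.16 on T 0 h arrays, it was -1.15 and passed (limma adjusted p = 9.34e-07). Cenpf, a large kinetochore protein of G2 and mitosis, averaged 6.22 ± 0.20 after LPS and 6.98 ± 0.20 in B cells at 0 h, and 4.86 ± 0.11, 3.86 ± 0.07 and 2.67 ± 0.09 in T cells at 0, 4 and 14 h, the last close to the floor. Cenpe, a kinetochore motor, averaged 5.10 ± 0.25 after LPS and 5.86 ± 0.30 in B cells at 0 h, and its T cell falls of 0.79 at 4 h and 0.77 at 14 h were each lost without T 0 h replicate 2 (limma adjusted p = 0.122 and 0.138), the first also without 4 h replicate 3 (0.0996) and the other without 14 h replicate 1 (0.114) or 3 (0.0604).

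Kinesins push and carry spindle microtubules and chromosomes. Kif22, which pushes chromosome arms away from the poles, read 9.56, 9.73 and 9.62 after LPS, against 10.32, 9.96 and 10.06 in B cells at 0 h. On T arrays it read 9.13, 9.21 and 9.11 at 0 h, 8.56, 8.04 and 8.10 at 4 h, and 8.0, 8.38 and 8.02 at 14 h. The fall after LPS was 0.48 ± 0.14 (limma adjusted p = 0.00627) with no overlap between arrays, and did not pass with the second-brightest probe set (0.132). Kif11, which slides spindle poles apart and whose promoter is printed above, averaged 6.41 ± 0.30 after LPS and 7.57 ± 0.19 in B cells at 0 h, and 6.72 ± 0.18, 5.95 ± 0.06 and 5.18 ± 0.13 in T cells at 0, 4 and 14 h. Kif20a, a motor of the late spindle, averaged 4.83 ± 0.36 after LPS and 5.30 ± 0.10 in B cells at 0 h, and 3.84, 2.99 and 3.20 in T cells at 0, 4 and 14 h. Kif4, a chromosome-bound kinesin, was 2.36 ± 0.03 after LPS and 3.27 ± 0.48 in B cells at 0 h and 2.27 to 2.42 as the T group means, close to the floor.

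Kif23 and Racgap1 form the centralspindlin complex, which bundles microtubules at the middle of the dividing cell and sets the cleavage site. Both had their highest mean in T cells at 0 h, unlike most members. Kif23 read 6.34, 6.38 and 6.39 after LPS, against 7.13, 7.56 and 7.12 in B cells at 0 h. In T cells Kif23 read 7.48, 7.73 and 7.57 at 0 h, 4.78, 4.78 and 5.01 at 4 h, and 3.74, 4.22 and 4.21 at 14 h, so that each time stood apart from the others. Against 0 h it fell by 2.74 ± 0.14 at 4 h (limma adjusted p = 1.08e-09) and by 3.53 ± 0.14 at 14 h (9.12e-11), the largest fall of any member at 14 h. The difference of Kif23 between B and T cells at 0 h, -0.32 ± 0.14, did not pass (limma adjusted p = 0.053). A second probe set of Kif23 averaged 5.1 on B 0 h arrays and 6.43 on T 0 h arrays, a difference of -1.32 that passed with it in place of the first (limma adjusted p = 0.000381).

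Racgap1, the GTPase-activating subunit, read 5.37, 5.32 and 5.68 after LPS, against 6.90, 6.85 and 6.87 in B cells at 0 h. On T arrays it read 8.98, 9.0 and 8.76 at 0 h, 5.80, 5.47 and 5.91 at 4 h, and 7.02, 7.16 and 6.97 at 14 h. Every array at 14 h lay above every array at 4 h and below every array at 0 h. Racgap1 fell by 1.41 ± 0.12 after LPS (limma adjusted p = 6.66e-08). In T cells it fell by 3.18 ± 0.12 at 4 h (limma adjusted p = 4.19e-11), the largest fall of any member at that time, and was higher at 14 h than at 4 h by 1.32 ± 0.12 (1.21e-06). In B cells at 0 h it was lower than in T cells at 0 h by 2.04 ± 0.12 on the log2 scale (limma adjusted p = 1.74e-09). A second probe set gave the same directions with a difference between B and T cells of -0.28, which did not pass (limma adjusted p = 0.22 with that probe set in its place).

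**Figure D3:**
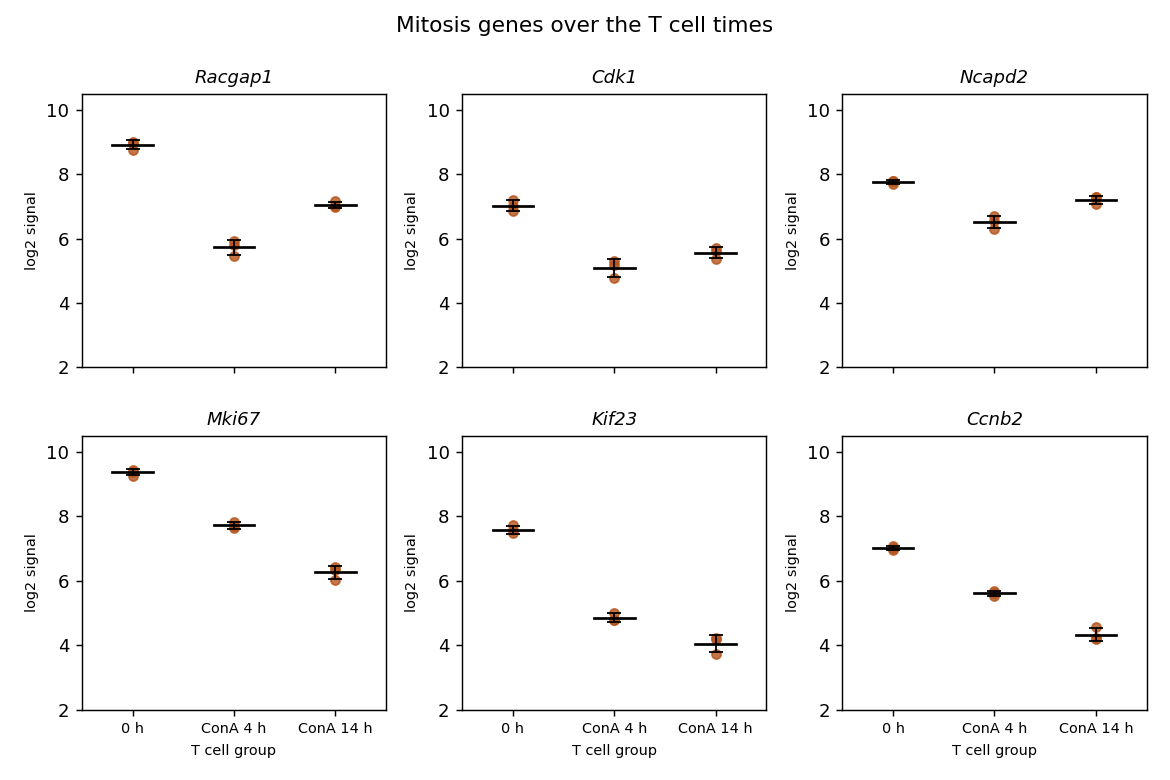
Log2 signal (y axis) of 6 mitosis genes in T cells at 0 h and after 4 h and 14 h of ConA (x axis). Points are single arrays, lines are means and bars are SD over 3 arrays. Racgap1, Cdk1 and Ncapd2 were higher at 14 h than at 4 h, whereas Mki67, Kif23 and Ccnb2 fell again. Between these times a second probe set changed by 1.69 for Racgap1, -0.22 for Kif23 and -0.01 for Ncapd2, that of Ncapd2 below the test level in T cells.

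Among the other spindle proteins, Prc1, which cross-links midzone microtubules, had the largest difference of the tested members between the untreated cell types. It averaged 6.80 ± 0.18 after LPS and 7.82 ± 0.07 in B cells at 0 h, against 4.96 ± 0.29 in T cells at 0 h, so that B cells at 0 h exceeded T cells at 0 h by 2.86 ± 0.16 (limma adjusted p = 8.72e-10). Nusap1, a microtubule-bundling protein near chromosomes, averaged 8.29 ± 0.11 after LPS and 9.25 ± 0.14 in B cells at 0 h, and 6.77 ± 0.13, 5.95 ± 0.56 and 4.55 ± 0.18 in T cells at 0, 4 and 14 h. It fell by 2.22 ± 0.21 at 14 h (limma adjusted p = 3.99e-07), and B cells at 0 h exceeded T cells at 0 h by 2.48 ± 0.21 (7.77e-08). Hmmr, a spindle-associated hyaluronan receptor, fell by 1.48 ± 0.20 after LPS (limma adjusted p = 8.21e-06), whereas in T cells it averaged 3.80 at 0 h and 3.36 at 4 h and at 14 h and did not pass. Spag5, the spindle protein astrin, averaged 4.23 ± 0.41 after LPS and 5.28 ± 0.76 in B cells at 0 h with overlapping arrays, and its fall of 0.80 at 14 h of ConA (limma adjusted p = 0.049) was lost without any one of 5 arrays (0.0628 to 0.216). Dlgap5, a spindle assembly factor below the test level, averaged 3.38 ± 0.03 after LPS and 4.54 ± 0.21 in B cells at 0 h, with T group means of 2.97 to 3.44.

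Tpx2, which activates Aurka on the spindle, had probe sets that disagreed after LPS. The probe set used here read 5.39, 4.92 and 5.24 after LPS, against 6.01, 6.24 and 5.53 in B cells at 0 h, a fall of 0.75 ± 0.17 (limma adjusted p = 0.00103). A dimmer probe set annotated to Tpx2 alone averaged 5.49 after LPS, against the floor of 2.24 in B cells at 0 h, and another such probe set 5.06 after LPS, against 2.28. With the dimmer one in its place the difference was 3.25 in the opposite direction (adjusted p = 3.42e-13, limma), so that no direction is settled for Tpx2 in B cells. Its T cell fall of 0.46 at 4 h (adjusted p = 0.0268, limma) was lost without 0 h replicate 1 (0.102) or 4 h replicates 1 (0.0648) or 3 (0.0809). Over the 14 genes with another probe set that reached 5, 18 such probe sets in all, the direction was the same as with the brightest one in 16 for LPS, 16 for ConA at 4 h and 14 for ConA at 14 h, in 17 for B against T cells at 0 h, and in 9 for ConA at 14 h against 4 h. The dimmer Tpx2 probe sets averaged 2.24 in each T cell group. Between T cell groups they show no direction and count as not the same. Of the dimmer probe sets that stayed below 5, that of Cenpe averaged 3.49 on B 0 h arrays and 4.78 on T 0 h arrays, a difference of -1.29 against 1.24 with the brightest one.

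Chromosome structure genes fell in both cell types. Top2a, the topoisomerase that untangles sister chromatids, read 8.21, 8.47 and 8.31 after LPS, against 9.34, 9.51 and 9.40 in B cells at 0 h. Top2a in T cells read 8.53, 8.42 and 8.38 at 0 h, 7.38, 7.42 and 7.41 at 4 h, and 7.56, 7.51 and 7.62 at 14 h, with falls of 1.09 ± 0.08 after LPS (limma adjusted p = 8.92e-09) and 1.04 ± 0.08 at 4 h of ConA (3.86e-08). The second-brightest probe set of Top2a did not pass in either (limma adjusted p = 0.136 and 0.775). Ncapd2 and Ncapg, subunits of condensin I, which compacts chromosomes, fell by 1.57 ± 0.14 and 1.38 ± 0.20 after LPS (limma adjusted p = 1.51e-07 and 2.37e-05). Ncapd2 averaged 7.76 ± 0.06 at 0 h, 6.52 ± 0.19 at 4 h and 7.21 ± 0.13 at 14 h of ConA, so that it regained 0.69 ± 0.14 between 4 h and 14 h (limma adjusted p = 0.00126, a change of -0.01 with the second-brightest probe set), while Ncapg averaged 4.80 ± 0.10, 3.16 ± 0.53 and 3.38 ± 0.23 at those times. Ncapg fell by 1.64 ± 0.20 at 4 h of ConA (limma adjusted p = 8.46e-06). The second-brightest probe set of Ncapd2 averaged 4.7, 4.68 and 4.67 in T cells at 0, 4 and 14 h, below the test level.

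Mki67, the protein that coats mitotic chromosomes and the usual marker of dividing cells, spanned a wide range over the groups. It read 10.98, 10.87 and 10.88 after LPS, against 11.83, 11.84 and 11.90 in B cells at 0 h. On T arrays Mki67 read 9.45, 9.39 and 9.27 at 0 h, 7.84, 7.64 and 7.69 at 4 h, and 6.03, 6.42 and 6.35 at 14 h. The 5 groups do not overlap. Mki67 fell by 0.95 ± 0.10 after LPS (limma adjusted p = 4.92e-07) and, against 0 h, by 1.65 ± 0.10 at 4 h (3.66e-09) and 3.10 ± 0.10 at 14 h of ConA (7.91e-12), and B cells at 0 h exceeded T cells at 0 h by 2.49 ± 0.10 (1.65e-11).

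Between 4 h and 14 h of ConA the members were called about as often as all tested genes (46.7% against 48.9%). Of 30 members, 10 were lower at 14 h than at 4 h, where 21.5% of all tested genes were lower, and 4 were higher (Racgap1, Aurka, Ncapd2 and Cdk1), where 27.4% were higher. In this comparison 9 of 18 dimmer probe sets had the direction of the brightest, and 0 went the opposite way by at least 0.5. The others include the dimmer ones of Tpx2, which lay at the floor in both groups and show no direction. With the second-brightest probe set Kif11 changed by 0.02 and Ncapd2 by -0.01. Both of these probe sets averaged below 5 in every T cell group. The 6 largest falls were those of Mki67 (1.46 ± 0.10), Nusap1 (1.40 ± 0.21), Ube2c (1.30 ± 0.18), Ccnb2 (1.28 ± 0.10), Cenpf (1.19 ± 0.11) and Ccna2 (0.94 ± 0.07), with limma adjusted p-values of 8.64e-05 or less. Birc5, Kif11, Kif23 and Cdca3 were also lower. For Ccna2 the second-brightest probe set changed by -0.4, with overlapping arrays. At least 2-fold falls were seen in 5 members, against 3.32% of all tested genes, and a rise of that size in Racgap1 alone, against 4.16%.

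The response to 4 h of activation differed between the cell types in 11 of 30 members by the interaction test in limma, where 66.1% of all tested genes differed. The value is the LPS change in B cells minus the ConA change in T cells. It was positive for Melk, Kif23, Racgap1, Cdk1, Birc5 and Mki67, of which the last 5 fell less in B cells than in T cells, and negative for Aurkb, Hmmr, Aurka, Cenpa and Cdc20, whose change was the more negative in B cells. For Cenpa it was 0.82, of the opposite sign, with the second-brightest probe set (limma adjusted p = 0.000755), and for Hmmr 0.23. Aurkb, Hmmr and Aurka averaged 3.80 to 4.22 in T cells at 0 h, where the floor of 2.24 limits how far a value can fall. Kif23 had the highest value after Melk, 1.83 ± 0.20 (limma adjusted p = 2.27e-06).

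Other mitosis genes, a list of 81 on the arrays of which 57 were tested, were called about as often as all tested genes. Their calls leaned to falls after LPS and at 4 h of ConA, and to rises at 14 h against 4 h. After LPS 31 fell and 11 rose, with a median change of -0.37, so that 73.7% were called, against 79.9% of all tested genes (42.3% lower, 37.6% higher). At 4 h of ConA 28 fell and 7 rose (-0.30), or 61.4% against 65.9% (32.5% lower, 33.4% higher). At 14 h of ConA 19 fell and 17 rose against 0 h (-0.03), or 63.2% against 68.4% (31.9% lower, 36.6% higher). Against 4 h 24 rose and 4 fell (0.21), or 49.1% against 48.9% (27.4% higher, 21.5% lower). Cdc25b, a phosphatase that activates Cdk1, fell most, by 3.19 ± 0.09 after LPS (limma adjusted p = 6.05e-13) and by 2.40 ± 0.09 at 4 h of ConA (4.58e-11). The spindle checkpoint gene Mad2l1 and the cytokinesis scaffold Anln also fell after LPS, by 1.40 ± 0.09 and 1.35 ± 0.16.

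The genes of that list that rose after LPS had Lmnb1, a lamin of the nuclear envelope, at their head, at 8.82, 8.89 and 8.91 after LPS, against 6.82, 6.60 and 6.54 in B cells at 0 h. It rose by 2.22 ± 0.15 (limma adjusted p = 6.14e-09), and Trip13, an ATPase of the spindle checkpoint, rose by 1.42 ± 0.13 (2.4e-07). In T cells at 14 h against 4 h the largest rises were those of the kinetochore gene Cenpk (1.81 ± 0.19), Trip13 (1.09 ± 0.13), Cdc25b (1.09 ± 0.09) and Cks1b, a Cdk-binding protein (1.08 ± 0.07, limma adjusted p = 5.01e-08). Cks1b at 14 h, at 11.82, 11.85 and 11.87, lay above all other arrays of the series.

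**Figure D4:**
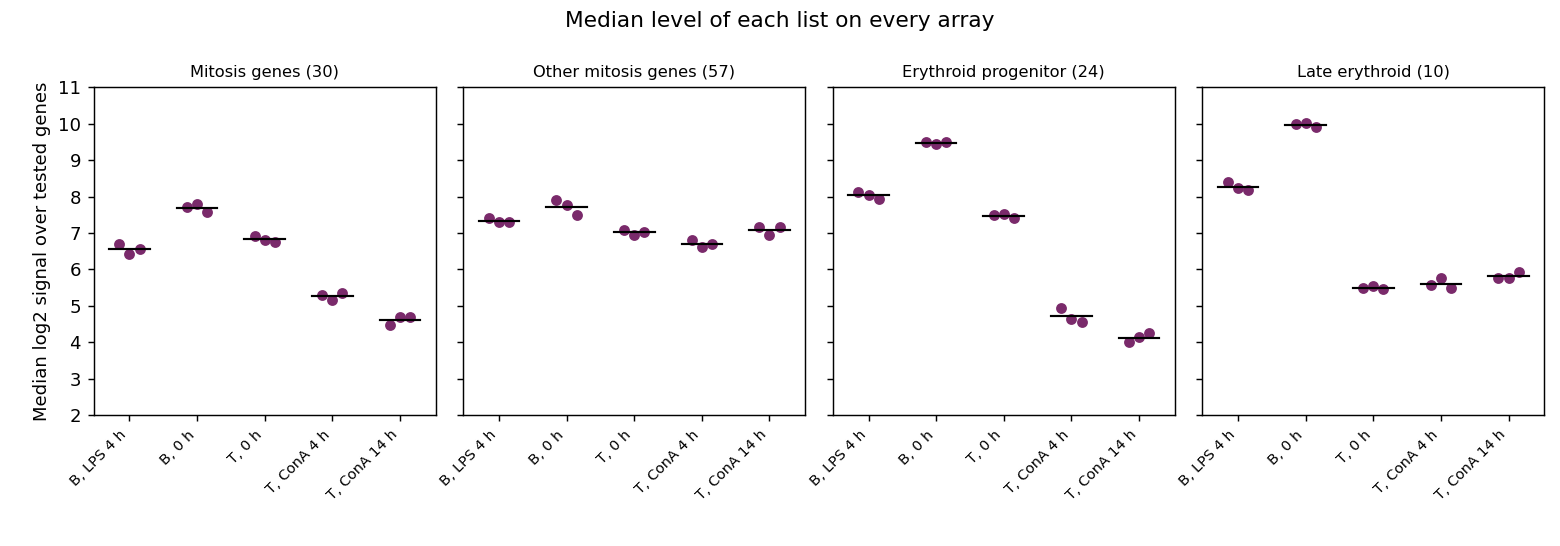
Median log2 signal over the tested genes of 4 lists on every array (points; the line is the mean of 3 arrays), with the number of genes in brackets and the 5 groups along the x axis. The mitosis genes and the erythroid progenitor markers were highest in B cells at 0 h and lowest in T cells at 14 h, whereas late erythroid genes lay between 5.45 and 5.94 on all T arrays and the other mitosis genes varied less.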

How the data were processed

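The deposited values are log2 signals. Per the submitters' processing notes the authors used GCRMA, which corrects for background and normalizes arrays to each other; no version is given in the sources used here. In all there were 45101 probe sets on 15 arrays, with 0 columns from other samples, a floor of 2.24 and array medians of 2.42 to 2.57. The labels state that 100 ng of RNA was labelled per sample, so RNA content per cell is not visible. Gene symbols came from the platform's gene table, checked by Entrez number against RefSeq; 34958 probe sets had 1 symbol, and the 932 with several and 9211 with none were left out.

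One model of 5 group means over the 15 arrays was fitted to 9045 genes in R 4.3.3 by limma 3.58.1, with contrasts moderated by eBayes (10 residual degrees of freedom, prior 3.16), with p-values adjusted over all 9045 genes in each comparison by the Benjamini-Hochberg method and called at 0.05. Changes carry standard errors, levels SDs over 3 arrays. The labels do not say that replicates came from separate animals or cultures, so p-values measure the spread between these samples, which may be technical. In simulated data 94% of 67 genes changed 2-fold were recovered for LPS, 91% for ConA at 4 h and 95.5% at 14 h, with 14, 4 and 8 false calls among 8845 unchanged genes. Far fewer genes were changed there than were called in these data, 65.9% to 79.9% against 0 h. The counts of false calls therefore do not carry over to the calls made here.

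The members and lists were chosen with earlier results of these data known. Every member was named; full statistics went to the 6 called members with the largest rise and fall in a comparison, all array values to the 8 with the highest mean and to those that moved against the rest, and up to 4 called genes were named from each other list. Members that 1 array decides were named after their values were seen. Alternatives were another floor on levels, other scalings, array weights, other probe sets, only the groups compared, a replicate block and leaving out arrays.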

Additional observations from a re-analysis of the deposited data

Results flagged for a closer look

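For 11 mitosis genes the 4 h response differed between the cell types by the interaction test in limma. The value is the LPS minus 0 h change in B cells less the ConA minus 0 h change in T cells, over 3 arrays per group, and 66.1% of all tested genes passed the same test. It was -1.63 ± 0.33 for Aurkb (SE, limma adjusted p = 0.000616), -1.05 ± 0.28 for Hmmr (0.00459), -0.96 ± 0.31 for Aurka (0.0149), -0.76 ± 0.13 for Cenpa (0.000163) and -0.33 ± 0.14 for Cdc20 (0.0472). It was 0.70 ± 0.14 for Mki67 (limma adjusted p = 0.00045), 0.91 ± 0.15 for Birc5 (9.25e-05), 1.23 ± 0.18 for Cdk1 (3.26e-05), 1.77 ± 0.17 for Racgap1 (6.03e-07), 1.83 ± 0.20 for Kif23 (2.27e-06) and 1.84 ± 0.31 for Melk (0.000123). The call of Cdc20 was lost without any one of 9 of the 12 arrays, with adjusted p-values of 0.0587 to 0.121, and that of Cenpa did not keep its sign with its second-brightest probe set (0.82).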

How the results depend on the processing

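Over 3252 values of single members under the alternatives, 3066 kept their direction and their side of the threshold, 74 passed it newly, 99 no longer passed and 13 changed sign. Shares over all genes were not computed under the alternatives, so the counts of members below have none beside them. With a level of 7 in place of 5, after LPS 0 members rose and 18 fell, the medians were -1.28 for ConA at 4 h, -1.63 at 14 h with 0 rising, and -0.36 for 14 h against 4 h, 16 members were higher and 2 lower in B than in T cells at 0 h with a median of 1.06, and 2 interactions were negative; fewer genes are tested there. With the second-brightest probe set, after LPS 2 rose and 17 fell (median -0.71), at 14 h 0 rose and 16 fell (-1.08), against 4 h 4 fell (-0.03), 16 were higher and 2 lower in B cells at 0 h, and 2 interactions were negative (median 0.30). Signs turned there for Tpx2 after LPS (3.25) and in the interaction (3.25), Cdc20 at 14 h (0.01), and the interactions of Cenpa (0.82) and Hmmr (0.23). They also turned for Kif11 (0.02) and Ncapd2 (-0.01) at 14 h against 4 h, with probe sets below 5 in every T cell group. Tpx2 at 4 h (0.00) and 14 h (0.00) was counted with these. Its second-brightest probe set lay at the floor on every T array and shows no direction in T cells. With the mean of all probe sets, the medians were -0.73 after LPS and -1.06 at 14 h with 0 rising, 3 members were lower in B cells at 0 h, 3 interactions were negative and that of Cenpa was 0.02. With probe sets free of cross-hybridizing suffixes, an alternative chosen after seeing the data, the medians were -1.33 at 14 h and 1.40 for B against T cells, and Cdc20 (0.01) and Cdca8 (0.07) at 14 h and the interaction of Cdca8 (-0.85) turned. At 14 h 0 members rose also with no filter (median -0.88), with only the groups compared, with array weights, and without T 0 h replicate 2 and T ConA 4 h replicate 1 together (median -1.08, and 1.39 for B against T cells). With array medians set equal 3 members were lower in B than in T cells at 0 h. With the replicate number as a block 2 were, and no other count of members moved by over 1.5 times. Samples of 1 number did not deviate together more than others (correlations of -0.457 to 0.236 over 30 pairs, median -0.001, against -0.43 to 0.575 over 60 pairs of different number, median 0.001). With 3 arrays per group this cannot exclude that samples were paired, which the labels do not state. Leaving out each array in turn gave, after LPS, 1 to 1 rising, 26 to 28 falling and medians of -1.03 to -0.91; at 4 h of ConA, 0 to 0 rising, 22 to 24 falling and -1.04 to -0.87; at 14 h, 0 to 1 rising, 23 to 26 falling and -1.29 to -1.08; for 14 h against 4 h, 3 to 5 rising, 10 to 12 falling and -0.20 to -0.09; for B against T cells at 0 h, 25 to 26 higher, 1 to 2 lower and 1.14 to 1.39; and for the interaction, 6 to 8 positive, 4 to 8 negative (8 without B 0 h replicate 3) and 0.07 to 0.22. Levels within about 2 of the floor limit what the T cell values of Kif4, Ttk, Nek2, Hmmr and Kif20a can show. Means at both times of ConA were also that low for Aurkb, Cenpe, Cenpf, Dlgap5, Melk, Ncapg, Prc1 and Spag5, among others. Of the members called against 0 h, 5 of 24 at 4 h and 7 of 28 at 14 h had a mean under 4 in either group.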

Other observations

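Regulators of mitotic transcription were called about as often as all tested genes. Of 20 tested, 7 rose and 8 fell after LPS (75%, against 79.9% of all tested genes called by limma), 6 rose and 8 fell at 4 h of ConA (70%, against 65.9%), and 4 rose and 9 fell at 14 h (65%, against 68.4%). Rbl2, a retinoblastoma-like protein of the DREAM complex, read 6.42, 6.80 and 6.30 after LPS, against 10.61, 10.53 and 10.41 in B cells at 0 h, a fall of 4.01 ± 0.17 (SE, limma adjusted p = 2.64e-11). Cdkn1b, the Cdk inhibitor p27, fell by 2.71 ± 0.13 after LPS (limma adjusted p = 1.9e-10), while Cdkn1a, the inhibitor p21, rose by 2.67 ± 0.23 after LPS (1.03e-07) and by 3.61 ± 0.23 at 4 h of ConA (1.04e-08). E2f2 fell by 3.0 ± 0.20 at 4 h of ConA (limma adjusted p = 1.75e-08) and did not pass after LPS (0.23 ± 0.20, 0.309), a difference that passed the interaction test (3.23 ± 0.29, 3.05e-07). E2f8, an E2F repressor of dividing cells, fell by 1.5 ± 0.19 after LPS and by 2.84 ± 0.19 at 4 h of ConA. Foxm1 stayed at 3.11 or below on all 15 arrays, and Mybl2, which encodes B-Myb, read 4.96, 4.51 and 4.96 after LPS, against 2.97, 3.50 and 2.64 in B cells at 0 h, both below the level for a test.

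Of 11 tested inhibitors of mitotic entry or of the anaphase-promoting complex, 5 rose and 4 fell after LPS (81.8%, against 79.9% of all tested genes called). At 4 h of ConA 5 rose and 4 fell (81.8%, against 65.9%), and at 14 h 4 rose and 4 fell (72.7%, against 68.4%). Gadd45b, a stress-induced gene whose family restrains Cdk1, rose by 4.73 ± 0.10 after LPS, by 3.84 ± 0.10 at 4 h of ConA and by 3.67 ± 0.10 at 14 h (limma adjusted p = 4.15e-14, 1.42e-12 and 2.8e-12). Wee1, the kinase that inhibits Cdk1, rose by 0.86 ± 0.10 after LPS (limma adjusted p = 2.54e-06) and by 0.51 ± 0.10 at 4 h of ConA (0.000571). Fbxo5, an inhibitor of the anaphase-promoting complex that is itself a gene of late cell cycle, fell in all 3 comparisons with 0 h, by 0.61 ± 0.08, 1.00 ± 0.08 and 1.45 ± 0.08 (limma adjusted p = 1.09e-05, 1.49e-07 and 3.64e-09).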
